A study of Mus musculus with 298 samples.

Results

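Gp1ba, Gp1bb, Gp9 and Gp5 encode the 4 chains of the GPIb-IX-V complex, the receptor that platelets carry for von Willebrand factor. They were taken by symbol from a matrix of whole-blood gene expression through the GENCODE annotation of mouse, and all 4 of 4 were found among 14605 genes. The values are TPM, which are scaled by transcript length and to a fixed sum, so levels may be compared between genes. The libraries come from weekly blood samples of 20 mice, 1 library per mouse and week, in a study of chronic myeloid leukemia (CML) driven by the human BCR-ABL kinase.

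The mice were SCLtTA/BCR-ABL animals on C57BL/6 (B6), genotype tTA+/-, BCR-ABL+/-, of both sexes and 6 to 8 weeks old at the start, and all of them carried the transgene, controls included. Its activator, tTA, is driven by SCL regulatory sequence, which is active in blood stem and progenitor cells, and tetracycline in the drinking water (0.5 g/L) keeps the transgene silent. The 3 control mice (57 libraries) were kept on tetracycline to week 18. The CML cohort (6 mice, 94 libraries) had tetracycline withdrawn after week 0 and was bled until week 18 or until an animal was moribund. The TOTO cohort (4 mice, 48 libraries) was off tetracycline for 6 weeks and back on it for the following 12. The TKI cohort (7 mice, 99 libraries) was off tetracycline and was dosed with the BCR-ABL kinase inhibitor nilotinib by daily gavage (50 mg/kg) for 4 weeks from week 6. The CML, TOTO and TKI mice, 17 in all, are called Tet-off mice for weeks 0 to 6. The sources used here do not say whether week 6 blood preceded the first dose or the return of tetracycline. The tissue label names mononuclear cells, while the extraction is described from whole blood.

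As background, the complex lets flowing platelets stick to von Willebrand factor on injured vessel walls. GPIbα, encoded by Gp1ba, is the chain that binds von Willebrand factor and also binds thrombin. GPIbβ, from Gp1bb, is joined to GPIbα by disulfide bonds, and GPIX, from Gp9, is needed for the other chains to reach the cell surface. GPV, from Gp5, is more loosely attached and is cut by thrombin. Loss of any of the first 3 chains gives Bernard-Soulier syndrome, with large platelets and bleeding, whereas loss of GPV does not. The RNA of blood platelets is handed down from the megakaryocytes that shed them, and in megakaryocytes these genes are targets of GATA1.

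On GRCm39, Gp1ba (ENSMUSG00000050675.8) lies on the plus strand at chr11:70529948-70532862, Gp9 (ENSMUSG00000030054.5) on the plus strand at chr6:87755047-87756750, and Gp5 (ENSMUSG00000047953.8) on the minus strand at chr16:30126502-30129631. Gp1bb (ENSMUSG00000050761.5) lies on the minus strand at chr16:18439067-18441153. All of its 2087 exonic bases, or 100%, fall within exons of Septin5, a septin gene on the same strand, so the split of reads between the pair is uncertain. Septin5 averaged 4.25 TPM over all libraries against 171 TPM for Gp1bb. Because GATA1 is a known activator of these genes, the bases just upstream of each start are shown, taken from the RefSeq promoter windows of 300 bases and matched exactly to GRCm39, 5′ to 3′ on the gene's own strand. Capitals mark GATA, or TATC on the other strand. The stretch for Gp1ba is chr11:70529698-70529947 (plus), for Gp5 chr16:30129632-30129849 (minus) and for Gp9 chr6:87754802-87755046 (plus), each ending before the first exon. The Gp1bb window lies wholly in the 3′ untranslated exon of Septin5, so only the bases around its 2 matches are given, at chr16:18441236-18441259 and chr16:18441161-18441184 (minus).
Gp1ba: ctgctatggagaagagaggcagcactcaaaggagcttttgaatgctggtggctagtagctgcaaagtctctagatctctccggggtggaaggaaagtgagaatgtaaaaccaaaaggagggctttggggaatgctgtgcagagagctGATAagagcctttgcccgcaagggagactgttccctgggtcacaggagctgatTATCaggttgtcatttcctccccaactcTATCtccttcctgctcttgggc
Gp1bb, match 1: cggtcatttgTATCtgcttccgag
Gp1bb, match 2: cctccccgccTATCataagggaac
Gp5: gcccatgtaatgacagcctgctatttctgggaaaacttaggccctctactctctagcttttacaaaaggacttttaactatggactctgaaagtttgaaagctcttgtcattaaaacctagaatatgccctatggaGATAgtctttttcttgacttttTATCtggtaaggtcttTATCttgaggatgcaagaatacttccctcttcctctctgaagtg
Gp9: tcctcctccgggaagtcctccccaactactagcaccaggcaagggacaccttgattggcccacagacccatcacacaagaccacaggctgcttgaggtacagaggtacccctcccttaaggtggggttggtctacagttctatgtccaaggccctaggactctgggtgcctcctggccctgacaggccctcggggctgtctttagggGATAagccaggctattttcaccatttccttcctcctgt
The 300-base windows hold 3 matches for Gp1ba, 2 for Gp1bb, 3 for Gp5 and 1 for Gp9. Of 32851 promoter windows of this length, 57.9% hold at least 1 match on either strand and 28.7% at least 2, so a match is a description of the letters and not a site. The longer GATAA or TTATC, which overlaps the first motif, is in the windows of Gp1ba (2), Gp5 (2) and Gp9 (1) but not of Gp1bb, and in 25.4% of all windows. GGAA or TTCC, the core of ETS-factor sites, occurs 7, 5, 3 and 3 times for Gp1ba, Gp1bb, Gp5 and Gp9, and 96.0% of all windows hold it.

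Labels, composition and scaling bear on every value. The transgene was listed at 0 TPM in 16 of 19 libraries of the CML mouse labelled 487 and never passed 0.409 TPM there, so some results that use this mouse are also given without it. The control library of mouse 490 at week 17 stood apart from the rest, with a median correlation of 0.445 with other libraries against 0.940 over all. It enters no test, and the levels, ratios and correlations that include it are given with and without it. Haemoglobin took 0.331% to 74.7% of the TPM of a library and the small RNA gene Rn7s2 took 14.5% to 56.0%. Every tested change of a subunit gene is therefore given on the deposited scale and, where the call or the direction differs, on values divided by size factors from median ratios (called rescaled). All 8 of 8 platelet marker genes were measured in these libraries, at a summed 273 to 18324 TPM, while 2 of 4 endothelial markers were in the matrix, at a summed level of 0 to 6.24 TPM. Batch is constant within a mouse and 3 batches are named: 2021_E, 2022_A and 2022_B. Replicates are separate mice. In bulk blood, fewer platelets and less of an RNA per platelet cannot be told apart.

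All 4 subunit genes were abundant in blood, in the order Gp9, Gp1bb, Gp5 and Gp1ba by mean level. Gp9 ran from 14.4 to 1261 TPM (median 328), Gp1bb from 0.461 to 530 TPM (median 155), Gp5 from 0 to 234 TPM (median 74.5) and Gp1ba from 0.546 to 269 TPM (median 67.5) over all libraries. Gp9 was the highest of the 4 in every library. Each gene reached 1 TPM in every library but the control library that stood apart, where Gp9 was 119 TPM while Gp5 was listed at 0. Without that library the lowest levels were 7.78 TPM for Gp1bb, 6.55 TPM for Gp5 and 2.57 TPM for Gp1ba.

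The order of the other three genes went with the cohort and week. Gp5 was above Gp1ba in 56 of 57 control libraries, in 17 of 17 libraries of Tet-off mice at week 0 and in 16 of 16 of TOTO mice at weeks 8 to 18. It was above Gp1ba in 9 of 42 libraries of TKI mice and 3 of 24 of TOTO mice at weeks 1 to 6. In CML mice from week 1 on, Gp5 was above Gp1ba in 33 of 70 libraries of mice other than 487 and in 18 of 18 of 487. Gp1bb was above Gp5 in 5 of 57 control libraries (4 of 56 without the library that stood apart) and in 42 of 42 libraries of TKI mice at weeks 1 to 6.

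**Figure D1:**
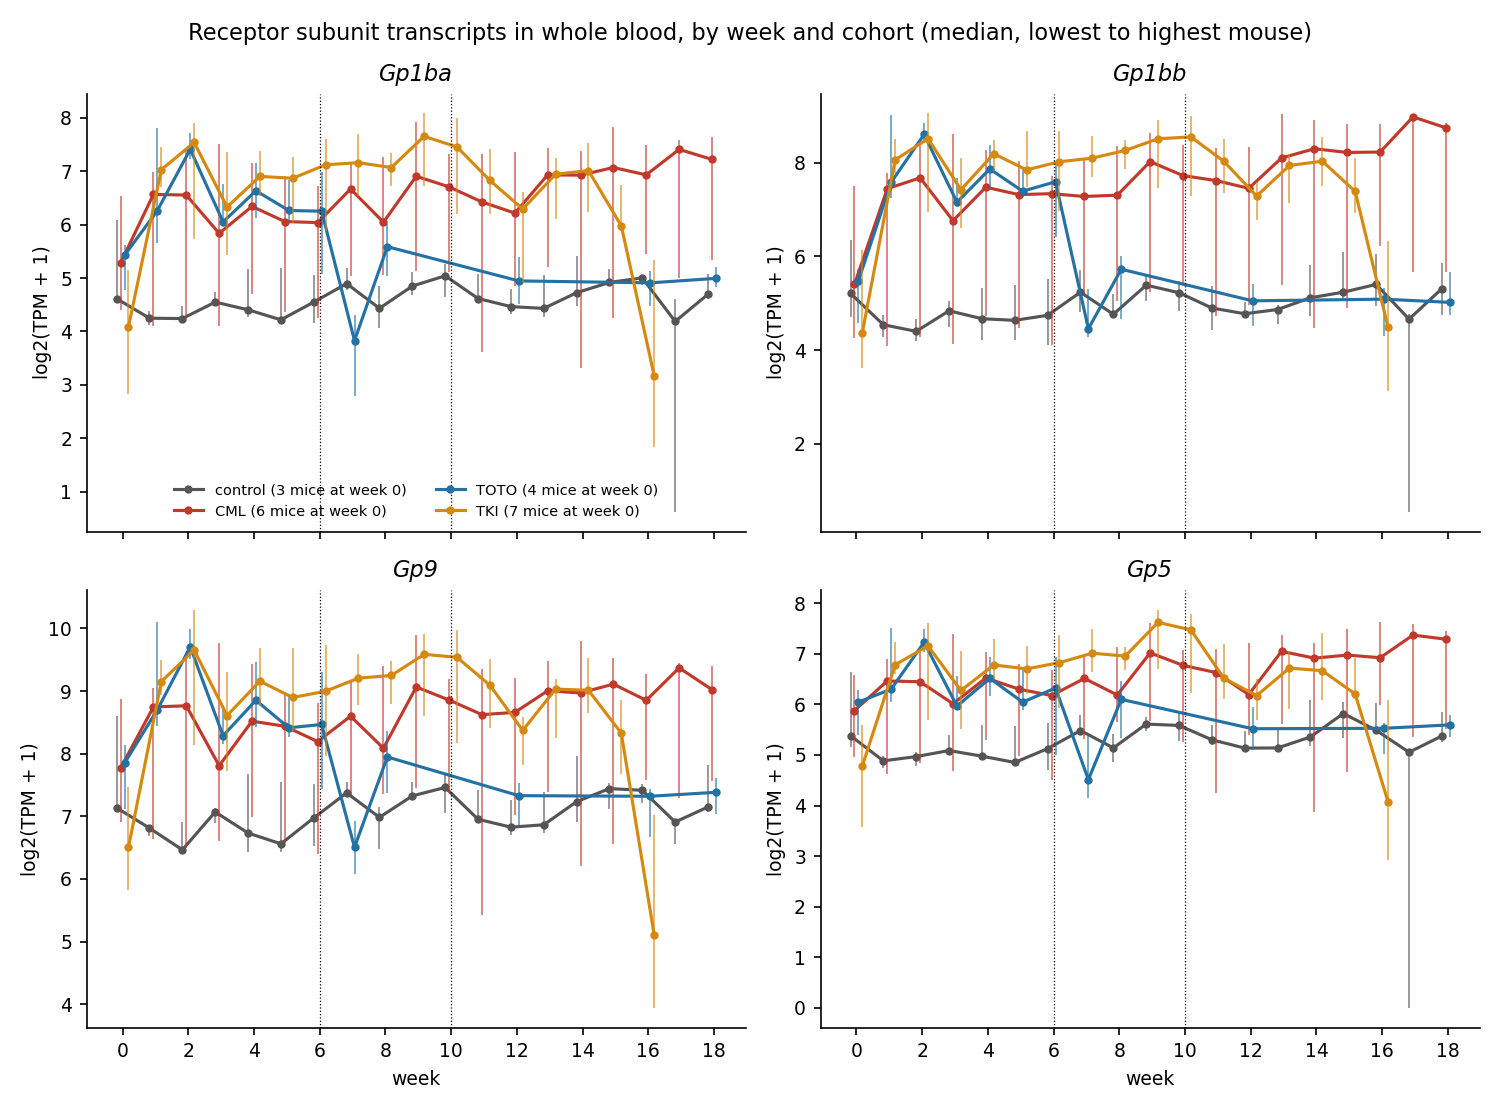
Expression of Gp1ba, Gp1bb, Gp9 and Gp5 in log2(TPM + 1) by week, 1 panel per gene, with the cohort median as points and bars from the lowest to the highest mouse; dotted lines mark weeks 6 and 10. Gp1bb in control mice averaged 22.1 TPM at week 1 and in TKI mice 269 TPM, and in TOTO mice it went from 182 TPM at week 6 to 24.7 TPM at week 7.

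All 4 subunit genes rose in the first week off tetracycline, Gp1bb by most. Gp1bb ran from 11.2 to 179 TPM (median 34.9) in the 17 Tet-off mice at week 0 and from 16.0 to 519 TPM (median 219) at week 1. The ranges overlapped, but 16 of 17 mice rose. In the 3 control mice, numbered 488, 489 and 490, Gp1bb was 25.2, 80.7 and 36.0 TPM at week 0 and 18.3, 22.3 and 25.8 TPM at week 1, lower in every one. This control fall is on the deposited scale and is not given rescaled. The red cell marker sum of control mice went from a median of 307111 to 736662 TPM in that week, and its part in the fall was not tested. The change of Gp1bb in Tet-off mice was 2.51 ± 0.34 on the log2(TPM + 1) scale (SE; limma adjusted p = 1.75e-05), or 5.68-fold.

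Gp1ba, the ligand-binding chain, ran from 6.14 to 92.1 TPM (median 32.6) at week 0 and from 16.2 to 222 TPM (median 104) at week 1. It rose by 1.73 ± 0.29 in log2 (adjusted p = 0.00019), in 16 of 17 mice. Gp9, the chain needed for surface transport, went from 55.8 to 467 TPM (median 173) up to 98.1 to 1103 TPM (median 489), a rise of 1.54 ± 0.26 in log2 in 16 of 17 mice (adjusted p = 0.00019). Gp5 changed least. Its levels were 10.9 to 94.6 TPM (median 41.7) and then 23.5 to 181 TPM (median 95.5), a rise of 1.13 ± 0.25 in log2 in 14 of 17 mice (adjusted p = 0.00362). All 4 of 4 subunit genes thus rose, where 3.28% of the 10519 genes tested were called higher, 2.22% lower and 5.49% in either direction. The median of all genes fell by 0.58 in log2 in this week and by 0.08 after rescaling. With rescaled values the 4 rises were 3.11 for Gp1bb, 2.33 for Gp1ba, 2.15 for Gp9 and 1.74 for Gp5, all past the threshold, while the share of all calls that were higher went from 59.7% to 37.9%. Rescaled, 2626 of the 10519 genes were called higher and 4302 lower.

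**Figure D2:**
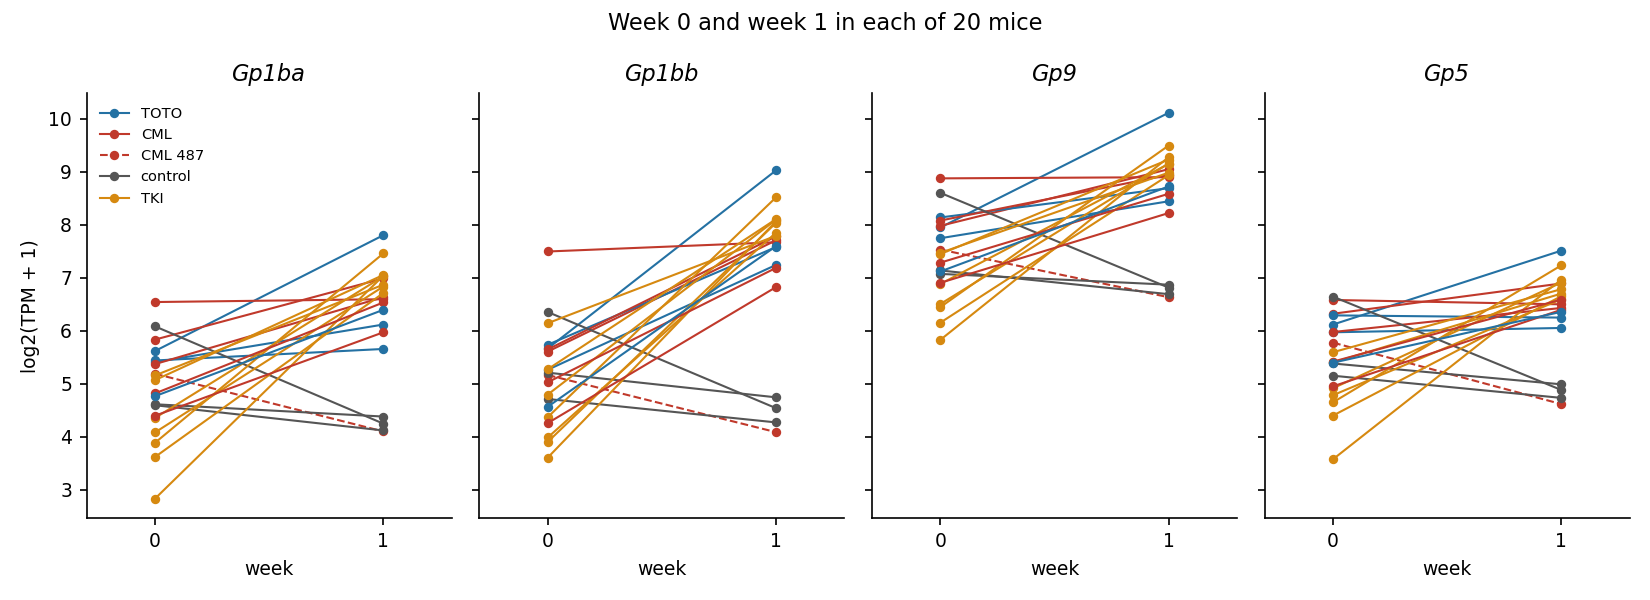
Gp1ba, Gp1bb, Gp9 and Gp5 in log2(TPM + 1) at week 0 and week 1, with a line for each of the 20 mice coloured by cohort and the CML mouse labelled 487 dashed. Lines rise for Gp1bb in 16 of 17 Tet-off mice and fall in all 3 control mice on this deposited scale, without rescaling.

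The exception was the mouse labelled 487, in which Gp1bb went from 34.9 to 16.0 TPM and Gp9 from 184 to 98.1 TPM. The CML mouse labelled 477 started high, at 179 TPM of Gp1bb, and ended the week at 202 TPM. The 7 TKI mice reached 220 to 364 TPM of Gp1bb at week 1 from 11.2 to 69.6 TPM, with no overlap between the weeks. Gp1bb rose by 2.13 in the 2 Tet-off mice of batch 2021_E, by 2.44 in the 10 of 2022_A and by 2.79 in the 5 of 2022_B.

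Measured against the change in control mice, the first-week rise did not pass over all genes. The differences, Tet-off minus control, were 3.41 ± 0.88 for Gp1bb, 2.57 ± 0.75 for Gp1ba, 2.35 ± 0.66 for Gp9 and 1.99 ± 0.63 for Gp5 in log2 (limma adjusted p from 0.318 to 0.335). In this comparison 0 of 10519 genes passed (0%), and 661 had an unadjusted p below 0.05. The median difference over all genes was 0.56 in log2 on the deposited scale and -0.04 after rescaling. Without the mouse labelled 487, 3 of the 4 members passed: Gp1bb at 3.64, Gp1ba at 2.75 and Gp9 at 2.50, with a limma adjusted p of 0.0458 for each. In that fit 81 of 10519 genes were called higher and 0 lower. Within batch 2021_E, 2 Tet-off against 2 control mice, the difference for Gp1bb was 3.26, and within 2022_A, 10 against 1, it was 2.88; 2022_B held no control mouse.

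Transcripts of BCR-ABL itself were still scarce at week 1, at a mean of 0.512 TPM against 0.140 TPM at week 0 in the Tet-off mice, higher in 8 of 17 (log2 change 0.34 ± 0.18, adjusted p = 0.108). Septin5, whose exons contain Gp1bb, went from 0.867 to 3.83 TPM (1.29 ± 0.23 in log2). The platelet marker sum went from a median of 3008 TPM (873 to 7938) to 8197 TPM (1763 to 16874) over the 17 mice, and the red cell marker sum from 532886 to 495926 TPM. The part of these cell types in the rise of the subunits was not tested.

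Other platelet genes moved with the complex in that week. Of 16 other platelet surface receptors tested, 11 were higher and 0 lower, with a median change of 1.12 in log2 against -0.58 over all genes. Of 13 granule and secreted proteins, 10 were higher (median 1.34), and of 19 cytoskeletal and signalling genes, 12 were higher (median 0.92). Only 1 of 12 megakaryocyte transcription factors passed, Gata1, at 0.71 (median of the list -0.09). Among 14 ligands, partners and sheddases of the complex 4 were higher, including Vwf, which encodes the ligand von Willebrand factor, at 1.67, and Fcer1g, an adaptor chain of platelet signalling, at 1.11. None of the genes on these lists was called lower on the deposited scale. Vwf, Thbs1 and Selp are on both the granule and the partner list. After rescaling, 16 of 16 receptors, 13 of 13 granule genes, 19 of 19 cytoskeletal genes, 9 of 12 transcription factors (1 lower) and 11 of 14 ligands and partners were higher. Selp (P-selectin of platelet granules) at 2.65 was the 1 gene of the lists with a larger change than Gp1bb, while Itga2b, the αIIb chain of the fibrinogen receptor, rose by 1.45 ± 0.26 and Pf4, platelet factor 4, by 1.55 ± 0.27.

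From week 1 to week 6 the transgene rose, and no subunit gene changed past the threshold on the deposited scale. BCR-ABL went from 0.512 to 8.34 TPM, in 16 of 17 mice (2.15 ± 0.30 in log2, adjusted p = 4.84e-05). The subunit changes were -0.45 ± 0.19 for Gp9, -0.29 ± 0.19 for Gp1ba, -0.27 ± 0.18 for Gp5 and -0.24 ± 0.19 for Gp1bb, and 0 of 4 passed (limma adjusted p from 0.0923 to 0.381), where 19.5% of genes were called and 2.55% lower. After rescaling the same 4 changes, -0.71, -0.55, -0.54 and -0.50, all passed as falls, and the share of calls that were higher went from 86.9% to 46.9%. On that scale 3056 of the 10519 genes were called higher and 3462 lower. Set against control mice, 0 of 10519 genes passed (0%; 133 at an unadjusted p below 0.05).

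Over the whole 6 weeks the order of the changes was that of the first week. Gp1bb ran from 16.3 to 411 TPM (median 184) at week 6 and was 2.27 ± 0.37 in log2 above week 0 (mean 200 against 42.2 TPM; 15 of 17 mice higher; limma adjusted p = 0.000234). Gp1ba rose by 1.44 ± 0.34 (13 of 17 mice; adjusted p = 0.00797), Gp9 by 1.09 ± 0.32 (13 of 17; adjusted p = 0.0227) and Gp5 by 0.86 ± 0.31 (12 of 17; adjusted p = 0.0499). The 4 calls compare with 3.86% of genes called higher and 16% in either direction, and with a median change of all genes of -0.34 (-0.02 after rescaling, which moved the share of calls that were higher from 24.1% to 47.2%). The call for Gp5 sits at the threshold: a pseudocount of 0.1 gave it an adjusted p of 0.0745, and leaving out any 1 mouse other than CML 484, CML 487 or TOTO 476 lost it (adjusted p up to 0.0778). With a term for batch, Gp1bb alone of the 4 passed, where 55 genes were called higher and 8 lower.

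The controls at week 6 lay at 16.2, 25.8 and 44.6 TPM of Gp1bb, and 2 CML mice lay among or near them, 487 at 16.3 TPM and 484 at 50.1 TPM. Tet-off minus control differences were 2.91 for Gp1bb, 1.95 for Gp1ba, 1.68 for Gp9 and 1.43 for Gp5, and 0 of 10519 genes passed (0%; 232 at an unadjusted p below 0.05). With rescaled values Gp1bb (2.33, limma adjusted p = 0.0414) and Gp1ba (1.38, adjusted p = 0.0489) passed. On that scale 690 of the 10519 genes were called higher and 793 lower.

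Beside these changes, F2rl3 (the PAR4 thrombin receptor) rose by 1.46 ± 0.30 from week 0 to week 6, Itgb3 (the β3 chain) by 1.52 ± 0.34 and Treml1 by 1.40 ± 0.32, among 7 of 16 receptors that rose. Of the granule genes 7 of 13 rose, led by Selp at 1.82 ± 0.35, F13a1 (factor XIII) at 1.63 ± 0.37 and Serpine2 at 1.37 ± 0.33. Of 19 cytoskeletal and signalling genes 6 rose, with Tuba4a at 1.72 ± 0.34, Tbxas1 (thromboxane synthase) at 1.18 ± 0.31 and Myl9 at 1.18 ± 0.33. Among the transcription factors, Nfe2 at 0.74 (adjusted p = 0.0881) and Gata1 at 0.57 (adjusted p = 0.111) did not pass. Vwf rose by 1.16 ± 0.32 (adjusted p = 0.0181) and Itgam, a leukocyte integrin chain that binds GPIbα, by 1.44 ± 0.40 (adjusted p = 0.0172), among 5 of 14 ligands and partners. Rescaled, the risers were 15 receptors, 13 granule genes, 18 cytoskeletal genes, 8 transcription factors (2 lower) and 12 ligands and partners (1 lower). Itga2b (1.09 ± 0.32, adjusted p = 0.022) and Pf4 (1.03 ± 0.33, adjusted p = 0.0328) rose by fewer log2 units than Gp1bb.

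CML mice parted late. At their last bleed the level of Gp1bb was 224 TPM in mouse 477 (week 7), 428 TPM in 480 (week 18), 25.4 TPM in 484 (week 11), 50.1 TPM in 487 (week 18), 459 TPM in 541 (week 18) and 150 TPM in 542 (week 16). Set against the controls of week 18, whatever the week of the last bleed, mouse 484 lay at the lowest value, 25.7 TPM, and 487 among them. The other 4 were above all of these controls. At week 11, when 484 was last bled, the controls ran from 20.4 to 40.3 TPM, a range that holds it. Changes from week 0, to the last bleed in CML mice minus to week 18 in control mice, were 1.76 ± 1.01 for Gp1bb, 1.09 ± 0.97 for Gp1ba, 0.66 ± 0.84 for Gp5 and 0.58 ± 0.95 for Gp9 in log2. No member passed (limma adjusted p = 1), in a comparison where 0 genes did (0%; 128 at an unadjusted p below 0.05). With week 1 in place of week 0 as the start, a choice made after seeing the data, all 4 differences turned negative, at -0.53 for Gp1ba, -0.48 for Gp1bb, -0.60 for Gp5 and -0.85 for Gp9. The difference for Gp1bb was 3.68 within 2021_E and -0.33 within 2022_A.

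No subunit gene changed past the threshold in the first 2 weeks of nilotinib on the deposited scale, and all 4 rose after rescaling. In TKI mice 502, 507, 508, 511, 512, 513 and 514, Gp1bb was 411, 361, 259, 346, 243, 150 and 125 TPM at week 6 and 306, 319, 275, 318, 358, 233 and 256 TPM at week 8. The ranges overlapped, with the spread narrower at week 8, and 3 mice fell while 4 rose. The changes were 0.22 ± 0.25 for Gp1bb, 0.21 ± 0.26 for Gp9, 0.14 ± 0.27 for Gp5 and 0.12 ± 0.28 for Gp1ba in log2, and 0 of 4 passed (limma adjusted p from 0.481 to 0.748), where 38.1% of genes were called, 0.38% higher and 37.7% lower. The median of all genes was -0.41 in this interval and 0.06 after rescaling. On rescaled values the 4 changes were 0.77 to 0.88 and all 4 passed as rises, with the share of calls that were higher going from 1.00% to 58.6%, and without haemoglobin and Rn7s2 they were 0.55 to 0.65 and passed too. Of the 10519 genes, 2917 were called higher and 2058 lower when rescaled. Without haemoglobin and Rn7s2 the counts were 1229 higher and 3406 lower. Over the same interval the transgene fell in 7 of 7 mice, from 13.4 to 3.49 TPM (-1.45 ± 0.33), and Septin5 fell by 1.19. The summed neutrophil markers (10 of 10 measured) went from 3783 to 19857 TPM at week 6 down to 1233 to 2625 TPM at week 8. Their part in the result was not tested.

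Against the 5 CML mice with both weeks, the TKI changes were lower by 0.34 to 0.40 in log2 on the deposited scale and higher by 0.40 to 0.46 after rescaling, and no member passed in either (11.4% of genes were called on the deposited scale, 0.038% higher, so that 0.334% of the calls were higher against 52.0% rescaled). At week 10, the end of dosing, the changes from week 6 in the 7 TKI mice were 0.43 to 0.53 and none of the 4 passed (adjusted p from 0.128 to 0.249; 5.36% of genes called, 2.18% higher and 3.18% lower). Gp5 alone passed after rescaling (0.51, limma adjusted p = 0.0225), and all 4 passed without haemoglobin and Rn7s2. Calls over all genes were then 2114 higher and 1812 lower rescaled, and 1840 higher and 1531 lower without haemoglobin and Rn7s2. The transgene, lower at week 8, averaged 11.6 TPM at week 10 against 13.4 TPM at week 6, higher in 3 mice and lower in 4. That change was -0.09 ± 0.26 in log2 (limma adjusted p = 0.898). In the 3 lists of other platelet genes 0 were called in either direction from week 6 to week 8 on the deposited scale, while 14 of 16 receptors, 12 of 13 granule genes and 18 of 19 cytoskeletal genes were higher after rescaling. Of the transcription factors 5 of 12 were lower, and of the ligands and partners 3 of 14; rescaled, these were 3 lower with 5 higher and 2 lower with 8 higher.

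After nilotinib ended, the complex fell in every mouse followed. Gp1bb at week 10 was 305, 418, 374, 410, 511 and 361 TPM in mice 502, 507, 508, 511, 512 and 513. At their last bleed, between week 11 and week 16, it was 79.4, 7.78, 152, 278, 21.4 and 195 TPM. The highest last value lay below the lowest value at week 10. The falls in log2 were -2.63 ± 0.78 for Gp1ba, -2.60 ± 0.77 for Gp9, -2.46 ± 0.70 for Gp1bb and -2.15 ± 0.58 for Gp5, in 6 of 6 mice each (limma adjusted p from 0.00225 to 0.00565). All 4 of 4 were called lower, as were 15.7% of all genes (29% in either direction). Gp9 went from a mean of 773 to 235 TPM and Gp1ba from 189 to 51.2 TPM.

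The last bleeds fell at different times. The 3 mice bled at week 16 held 79.4, 7.78 and 21.4 TPM of Gp1bb and the 3 last bled at week 11 or 12 held 278, 195 and 152 TPM. By batch the mean change of Gp1bb was -3.33 in 2022_A (4 mice) and -0.72 in 2022_B (2 mice), and both mice of 2022_B were last bled at week 11, so batch and time cannot be told apart here. The p-values rest mostly on a spread pooled over genes (172 prior against 5 residual degrees of freedom), and with no filter on low values none of the 4 passed (adjusted p from 0.0549 to 0.0770). Neutrophil markers rose in 6 of 6 mice over the same interval, from 1832 to 5960 TPM up to 14378 to 28171 TPM, and their part in the fall was not tested. Other platelet genes fell too: 14 of 16 receptors, 11 of 13 granule genes and 18 of 19 cytoskeletal genes were called lower (11, 7 and 13 after rescaling), with Itga2b at -2.46, Pf4 at -1.80 and Vwf at -3.02. Septin5 rose by 1.22, opposite to Gp1bb, and the transgene changed by -0.34 (adjusted p = 0.384).

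Return of tetracycline in TOTO mice separated Gp1bb from the other subunits. In mice 476, 482, 483 and 545 Gp1bb was 84.3, 166, 218 and 259 TPM at week 6, 18.3, 22.3, 19.5 and 38.6 TPM at week 7 and 63.3, 58.3, 45.5 and 24.3 TPM at week 8. Weeks 6 and 8 did not overlap. Gp5 in the same mice was 31.0, 61.4, 96.9 and 121 TPM at week 6, 16.9, 23.9, 19.7 and 40.5 TPM at week 7 and 87.3, 70.3, 64.8 and 39.5 TPM at week 8, with week 8 inside the range of week 6. From week 6 to week 8 Gp1bb fell in 4 of 4 mice, by -1.87 ± 0.33 in log2 (limma adjusted p = 7.8e-05). Gp1ba at -0.52 ± 0.37, Gp9 at -0.50 ± 0.34 and Gp5 at -0.13 ± 0.36 did not pass (adjusted p = 0.206, 0.179 and 0.750). So 1 of 4 members was called, where 4.45% of genes were called lower and 74.8% in either direction.

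That contrast between subunits depends on the scale for its calls, though Gp1bb fell most on each. The median of all genes rose by 0.95 in log2 over these weeks and by 0.07 after rescaling, and 94.1% of calls were higher against 53.9% rescaled. On rescaled values all 4 fell, Gp1bb by 3.02, Gp9 by 1.67, Gp1ba by 1.65 and Gp5 by 1.27, and without haemoglobin and Rn7s2 by 2.63, 1.24, 1.26 and 0.86. Calls over all genes were 3849 higher and 3287 lower rescaled, and 5967 higher and 1870 lower without haemoglobin and Rn7s2. With week 7 in place of week 8, chosen after seeing the data, all 4 passed as falls, among them Gp1ba at -2.38, Gp9 at -1.90 and Gp5 at -1.49. Without mouse 476, 3 members passed, Gp1ba (limma adjusted p = 0.0286) and Gp9 (adjusted p = 0.0188) beside Gp1bb. With any 1 mouse left out, 6212 to 8569 genes passed in this comparison. The transgene went from 7.20 TPM to 0 in all 4 mice, Septin5 changed by -1.85, and neutrophil markers went from 3430 to 16836 TPM at week 6 down to 858 to 1223 TPM at week 8, whose part in the result was not tested. Itga2b, at -0.41 (adjusted p = 0.278), did not pass, and of 16 other receptors 3 were higher and 3 lower, against 0 higher and 13 lower after rescaling.

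At week 18, with tetracycline long returned, TOTO mice held the complex at control levels within the spread. Gp1bb was then 26.0, 49.5, 28.4 and 34.4 TPM in the 4 TOTO mice and 25.7, 38.7 and 56.8 TPM in the 3 control mice, and the groups overlapped. Differences in the change from week 0 were -0.13 to 0.00 in log2, with an SE of 0.91 to 1.09, too wide to show that the levels were equal. In this limma comparison 0 of 10519 genes passed (0%, with 16 at an unadjusted p below 0.05), and the sign of the differences was not the same on each scale.

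**Figure D3:**
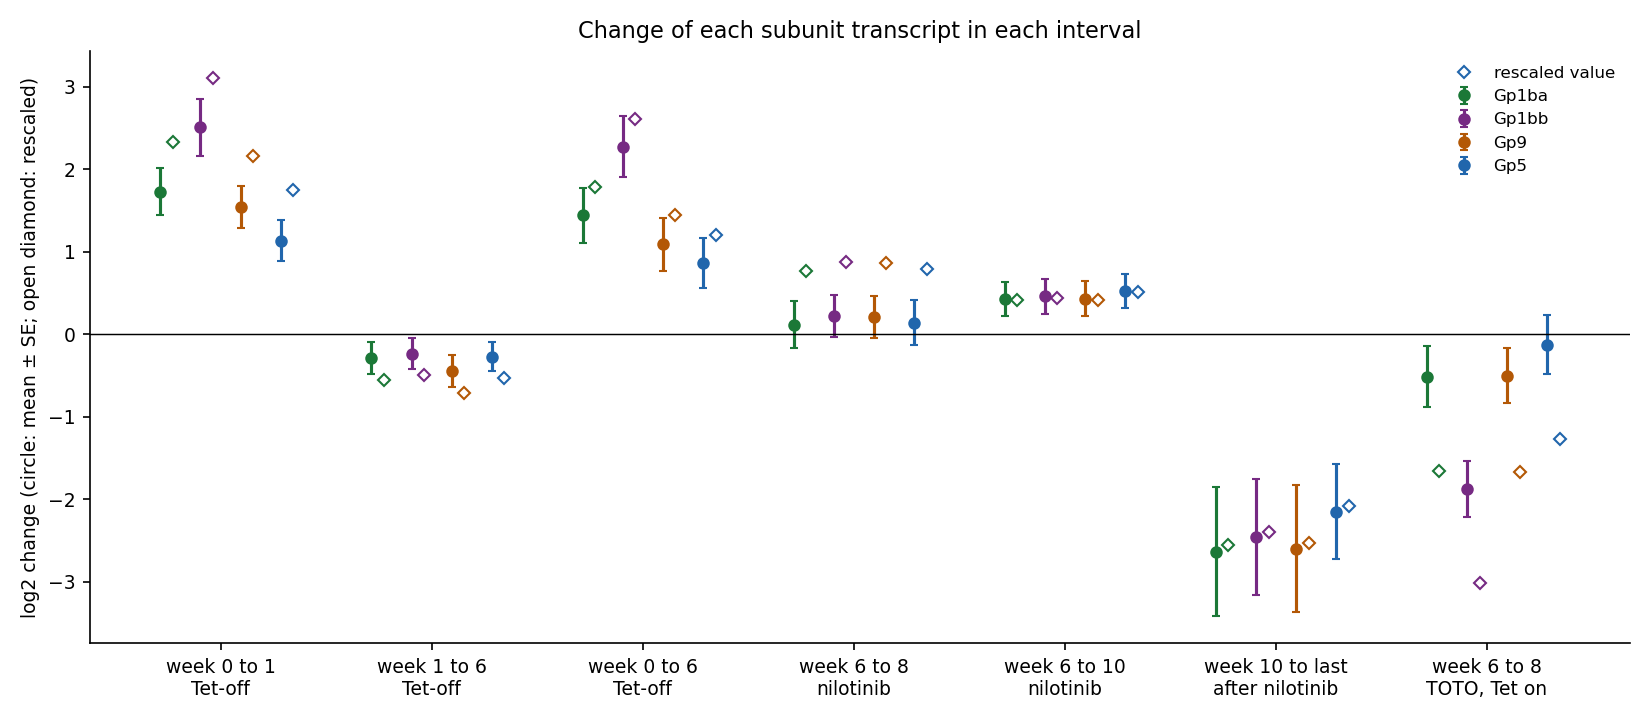
Log2 change of each subunit gene with its standard error (filled circles, deposited TPM) and after rescaling by size factors (open diamonds) over 7 intervals. Gp1bb is the highest of the 4 in the first week at 2.51 and the lowest after tetracycline returned at -1.87.

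The proportion of Gp1bb to the other subunits differed between cohorts and weeks. The TPM ratio of Gp1bb to Gp5 had a median of 0.738 in the 17 Tet-off mice at week 0, where 4 libraries were above 1, and of 0.810 in control mice (0.808 without the library that stood apart). In TKI mice it was 2.41 at weeks 1 to 6, 2.15 at weeks 7 to 10 and 2.36 from week 11 on, above 1 in every one of these libraries. In CML mice other than 487 it was above 1 in 70 of 70 libraries from week 1 on (median 2.23, lowest 1.35). In TOTO mice it was above 1 in 24 of 24 libraries at weeks 1 to 6 (median 2.51), in 1 of 4 at week 7 (0.969) and in 0 of 16 from week 8 to week 18 (0.699). Even at week 16 in TKI mice, when the mean level of Gp1bb had come down to 36.2 ± 38.0 TPM (SD, n = 3), its ratio to Gp5 stayed at or above 1.19.

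**Figure D4:**
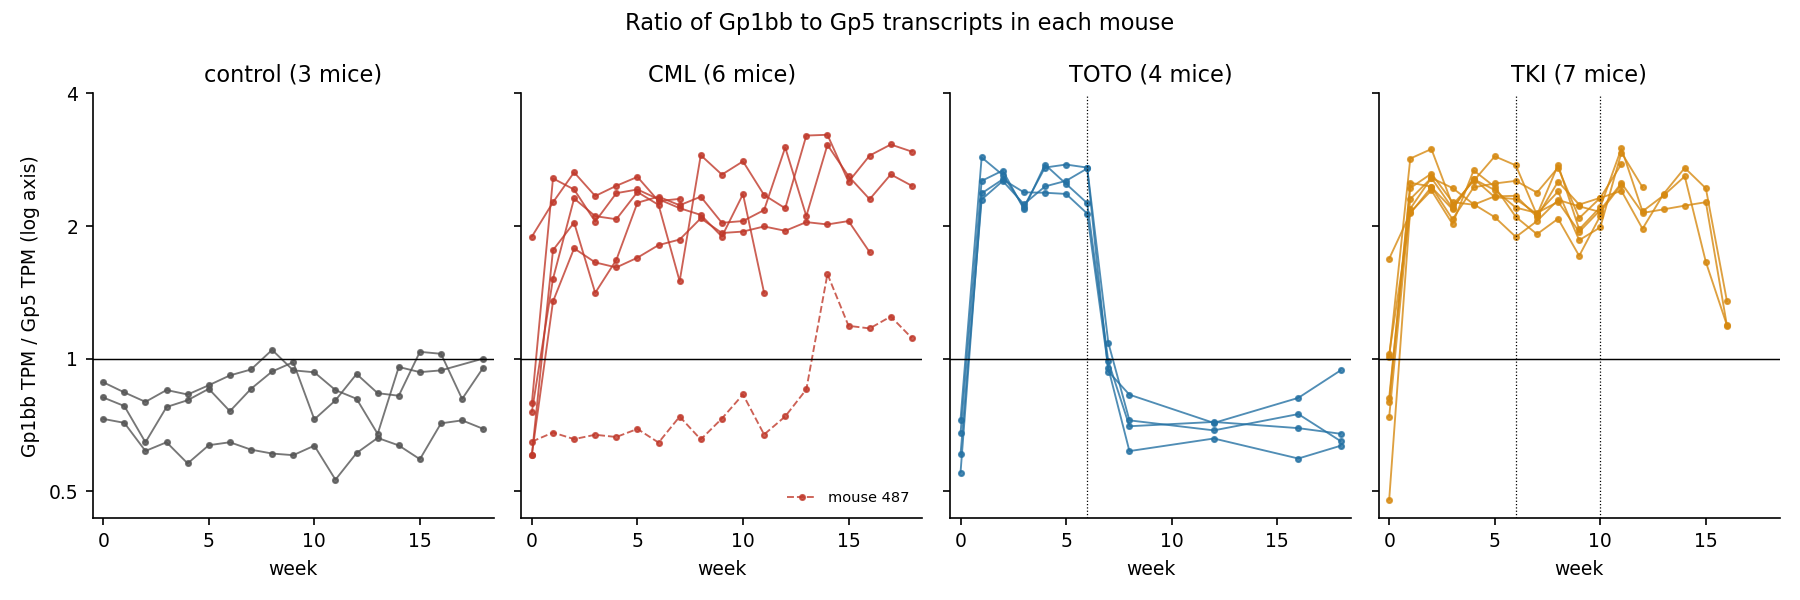
TPM ratio of Gp1bb to Gp5 by week on a log axis, 1 line per mouse and 1 panel per cohort, with a line at 1 and the CML mouse labelled 487 dashed; the control library of mouse 490 at week 17 is not drawn because Gp5 is listed at 0 there. TKI mice stay above 1 from week 1 on, and TOTO mice return below 1 from week 8 on.

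Ratios within a library carry no effect of its scaling beyond the pseudocount. In the first week the log2 ratio of Gp1bb to Gp5 rose by 1.37 ± 0.64 (SD) in 17 of 17 Tet-off mice, the mouse labelled 487 included (two-sided exact sign-flip test over mice, adjusted over 50 tests, p = 0.000153). Gp1bb also rose against Gp9 by 0.97 (16 of 17, adjusted p = 0.000277) and against Gp1ba by 0.78, and Gp1ba rose against Gp5 by 0.59 (17 of 17). Gp9 against Gp1ba moved by -0.19 (adjusted p = 0.0298), and Gp9 against Itga2b by 0.09, which did not pass (adjusted p = 0.208). Of the 50 tests, 22 passed. From week 1 to week 6 the ratio of Gp1bb to Gp5 changed by 0.04 and did not pass (sign-flip test, adjusted p = 0.667). Those that passed were smaller shifts than in the first week. Gp1bb rose against Gp9 by 0.21 (14 of 17, adjusted p = 0.00185) and against Itga2b by 0.13 (12 of 17, adjusted p = 0.0497). Gp9 fell against Gp5 by 0.17 (13 of 17, adjusted p = 0.00588), and no other ratio passed in this interval. During nilotinib, week 6 to week 8, the 1 ratio of 10 that passed was Gp1ba to Itga2b, at -0.11 (adjusted p = 0.0372). With 7 mice the unadjusted exact p cannot be below 0.0156. In 5 CML mice without nilotinib this ratio changed by -0.12 over the same weeks, lower in 5 of 5. The TKI and CML changes differed by 0.01 (exact permutation of mouse labels, adjusted p = 0.884).

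In the 4 TOTO mice the ratio of Gp1bb to Gp5 fell by 1.75 ± 0.09 (SD) in log2 from week 6 to week 8, while that of Gp9 to Gp1ba changed by 0.01; 4 mice allow no exact p below the threshold, so these are values only. Compared between cohorts by permuting the mouse labels (exact and two-sided), 40 tests added after seeing the data, the first-week change of Gp1bb to Gp5 was 1.42 larger in Tet-off than in control mice, without overlap (adjusted p = 0.0175). The change from week 6 to week 8 was 1.84 lower in TOTO than in CML mice, again without overlap (adjusted p = 0.0244). That call was lost without the CML mouse labelled 487 (adjusted p = 0.0602), but fewer mice also raise the smallest exact p that can be reached. The loss therefore cannot be laid to the values of that mouse. The TKI and CML mice differed by -0.01 in the same ratio (adjusted p = 0.928). Across stages, Gp9 kept a median of 0.78 to 0.97 of the level of Itga2b. The medians of Gp1bb were 0.39 to 0.44 of Itga2b in sets of libraries off tetracycline, from week 1 on. They were 0.16 to 0.19 in sets on tetracycline, week 0 included. Single libraries overlapped, up to 0.348 in Tet-off mice at week 0 and down to 0.295 in CML mice from week 1 on. The CML mouse labelled 487, off tetracycline from week 1 on, is in neither range and had a median of 0.167.

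From mouse to mouse the subunits changed alike. Over 17 Tet-off mice the changes from week 0 to week 6 of any pair of members correlated with r from 0.921 to 0.981 (permutation p = 1e-05, the smallest 100000 permutations can give; adjusted p = 1.67e-05 over 10 relations), and with rho from 0.909 to 0.988 at the same p. Without the 2 mice farthest from the median the lowest r was 0.918, and within batch 2022_A it was 0.913. The change of the transgene correlated with that of the members with r from 0.557 to 0.586 (permutation test, adjusted p from 0.0186 to 0.0202) and with Spearman's rho from 0.363 to 0.522, of which Gp1ba alone passed (permutation test, adjusted p from 0.0476 to 0.153). Without the 2 mice farthest from the median on the x axis that r fell to 0.240 to 0.383, so the relation rests on those mice. Within batch 2022_A, 10 mice, it was 0.518 to 0.624; the other batches hold too few mice.

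Across all libraries, which share mice, depth and composition, genes among the 3 most like each member by Spearman's rho of log2(TPM + 1) were F2rl2 (0.995), Mfsd2b (0.992) and Itgb3 (0.992) for Gp1ba, and Gas2l1 (0.988) and Rbpms2 (0.988) for Gp5. For Gp9 they were Myl9 (0.990), Cd151 (0.990) and Mfsd2b (0.989). For Gp1bb they included Treml1 (0.980) and Ache (0.978), among 5372 genes with a mean of at least 5 TPM. Members correlated with each other at 0.962 to 0.985. Without the control library that stood apart the range was 0.962 to 0.985, and rho to F2rl2, Treml1, Gas2l1 and Myl9 was 0.995, 0.980, 0.988 and 0.990. These values describe the libraries and carry no test.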

How the data were processed

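Weekly whole-blood RNA libraries of 20 mice were analysed. Values are TPM as the authors deposited them. The submitters' processing notes name STAR, Salmon and GRCm39, without tool versions, and the labels' protocols give ribosomal RNA depletion, reverse-stranded libraries and a RIN above 4.0. TPM keeps no depth, so depth is unknown and no counting error is given. Identifiers were matched to GENCODE M39 (14537 of 14605). Genes with a mean of at least 1 TPM (10519) were tested on log2(TPM + 1), which understates changes of low genes, with limma 3.58.1 (lmFit, eBayes with trend, R 4.3.3) on 1 change per mouse, adjusted by Benjamini-Hochberg at 0.05 over all genes. Errors are SE unless marked SD. Ratios and correlations used Python 3.11.15, numpy 2.4.6, pandas 2.3.3 and scipy 1.17.1. Alternatives were size-factor rescaling, TPM without 6 haemoglobin genes and Rn7s2, a pseudocount of 0.1, no filter, no replicate block, a batch term and leaving out mice. Libraries with the same mouse number come from the same animal; their residuals correlated at 0.189 on average, against -0.00974 between mice. Scripts were tested on simulated data. The members and gene lists were chosen with earlier results of these data known. Genes named beside the members were, by rule, the 3 nearest to each member in rho and the 3 with the smallest p per list from week 0 to week 6, with Itga2b, Pf4, Vwf and BCR-ABL; Septin5 and the genes named for the first week were chosen after their values were seen. Some genes under this rule are not reported here.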

Additional observations from a re-analysis of the deposited data

Results flagged for a closer look

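Several subunit ratios changed differently in different cohorts, by an exact, two-sided permutation of the mouse labels (adjusted p from 0.0175 to 0.0487 over 40 tests, added after seeing the data). From week 0 to week 1, Tet-off minus control, the differences in log2 ratio change were 1.42 for Gp1bb to Gp5, 1.06 for Gp1bb to Gp9, 0.838 for Gp1bb to Gp1ba, 0.583 for Gp1ba to Gp5, 1.06 for Gp1bb to Itga2b and -0.363 for Gp5 to Itga2b. From week 0 to week 6 they were 1.48 for Gp1bb to Gp5, 1.23 for Gp1bb to Gp9, 0.962 for Gp1bb to Gp1ba, 0.515 for Gp1ba to Gp5, 1.12 for Gp1bb to Itga2b and -0.354 for Gp5 to Itga2b. Both intervals share the week 0 libraries and the same control mice. From week 6 to week 8, TOTO minus CML, they were -1.84 for Gp1bb to Gp5, -1.41 for Gp1bb to Gp9, -1.53 for Gp1bb to Gp1ba, -0.433 for Gp9 to Gp5, -1.52 for Gp1bb to Itga2b and 0.328 for Gp5 to Itga2b. Without the CML mouse labelled 487 the TOTO difference for Gp1bb to Gp5 had an adjusted p of 0.0602. The smallest exact p that can be reached rises when a mouse is left out, and this limit holds for the other TOTO ratios too. In 32 groups of mice examined for a single stray value, 0 held one, where chance gives about 1 in 20.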

How the results depend on the processing

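Of the member changes recomputed under other settings, 313 kept their direction and side of the threshold, 35 newly passed, 8 no longer passed and 24 reversed; with 1 mouse left out these counts were 912, 5, 17 and 18. On rescaled values the number of members past the threshold was 4 from week 1 to week 6, 2 from week 0 to week 6 minus control, 4 in the first 2 weeks of nilotinib, 1 from week 6 to week 10 and 4 after tetracycline returned; without haemoglobin and Rn7s2 it was 4 in each of these except the control comparison. TKI minus CML turned positive, at 0.46, 0.40, 0.41 and 0.42 rescaled and 0.29, 0.22, 0.23 and 0.25 without haemoglobin for Gp1ba, Gp1bb, Gp5 and Gp9. TOTO at week 18 minus control reversed for Gp1bb, Gp5 and Gp9, to 0.20, 0.16 and 0.17 rescaled, 0.21, 0.16 and 0.16 without haemoglobin and 1.67, 0.90 and 1.25 with a batch term. The batch term left 1 member from week 0 to week 6 and gave Gp1ba -0.0986 and Gp5 -0.0699 for week 6 to week 8 of nilotinib; no filter left 0 after nilotinib. With week 7 for week 8, 4 members fell after tetracycline returned; with week 1 for week 0, CML last week minus control was -0.53, -0.48, -0.60 and -0.85 for Gp1ba, Gp1bb, Gp5 and Gp9, and TOTO at week 18 gave -2.03 for Gp1ba. Correlations past the threshold numbered 6 when rescaled and 6 without the mouse labelled 487, where those lost were the relations of the transgene. Omission of that mouse gave 3 members in the first week minus control, where 81 genes were called higher and 0 lower. It also turned the TKI minus CML difference of Gp9 to Gp5 to -0.00175. A pseudocount of 0.1 turned Gp9 to Gp1ba from week 6 to week 10 to -0.00207. Leaving out 1 mouse at a time gave 0 to 3 members in the first week minus control and 1 to 3 after tetracycline returned. In Tet-off mice, with 487 among those left out, it gave 4 in the first week, 3 to 4 from week 0 to week 6 and 0 from week 1 to week 6. For CML last week minus control and for TKI minus CML to week 8 it gave 0. CML last week minus control of Gp9 ran from -0.0197 (without control 489) to 1.17 (without 484). TOTO at week 18 minus control ran from -0.58 to 0.39 for Gp1ba, -0.53 to 0.31 for Gp1bb, -0.65 to 0.22 for Gp5 and -0.73 to 0.37 for Gp9, the ends being control 489 and 490. Nilotinib to week 8 ran from -0.0459 to 0.26 for Gp1ba and -0.00727 to 0.24 for Gp5, and Gp5 after tetracycline returned from -0.66 (without 476) to 0.36 (without 545). Ratios near 0 changed sign: Gp9 to Itga2b from week 0 to week 6 (-0.0219 to 0.0496) and Gp1ba to Gp5 from week 1 to week 6 (-0.0620 to 0.0186). In TKI mice to week 8 these were Gp1bb to Gp9 (-0.00168 to 0.0462), Gp1ba to Gp5 (-0.0762 to 0.0239), Gp1bb to Itga2b (-0.0180 to 0.0118) and Gp9 to Itga2b (-0.0420 to 0.0135). To week 10 they were Gp1bb to Gp1ba (-0.0281 to 0.0709), Gp9 to Gp1ba (-0.0399 to 0.0444) and Gp5 to Itga2b (-0.0541 to 0.0486). The causes were not tested. Without the replicate block, that is without pairing a mouse with itself, Gp1bb in the first week had an adjusted p of 2.25e-07. Week 10 to the last week was not run without 487, which is not in it.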

Other observations

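In the CML mouse labelled 487, whose transgene was seldom detected, Gp1bb was below Gp5 in 13 of 18 libraries from week 1 on and above it in 5, all between week 14 and week 18 (median ratio over the 18 libraries 0.735).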
